A study of Homo sapiens and Mus musculus with 55 samples.

Results

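The transcripts described here are those of 9 genes of the transforming growth factor beta (TGF-beta) superfamily and its extracellular control: TGFB1, TGFB2 and TGFB3, the activin subunits INHBA and INHBB, follistatin (FST), and the bone morphogenetic proteins BMP2, BMP4 and BMP7. They were taken by symbol from the deposited tables, with the title-case orthologs in mouse, out of 67107 distinct symbols over 10 tables. The rule for choosing them uses no measured value, but the 9 genes were chosen with earlier results of these data known. RNA sequencing covered 55 libraries from 4 breast cancer cell lines. The human lines, MDA-MB-436 and SUM159PT, are of the triple-negative subtype, while the mouse lines, 4T1 and Py230, come from mammary tumours.

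Cells labelled Tax-R were set against untreated parental cells of the same line, in MDA-MB-436 and in SUM159PT. The Tax-R cells of each human line, as well as 4T1, were given MYC siRNA-1 or MYC siRNA-2 and compared with control siRNA. Both human lines also had cells with a STING sgRNA, in groups labelled C1 and C2, set against mock cells. In a further pair of tables the cells carried the STING sgRNA plus a STING open reading frame (ORF), and their controls carried the same STING sgRNA plus a GFP ORF. Py230 cells with a Sting1 shRNA received doxycycline or vehicle. Human groups held 2 libraries and mouse groups 3. The labels do not say how the Tax-R cells were derived, what separates C1 from C2, or whether any group is a single clone, and doxycycline without the Sting1 shRNA is not analysed here.

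TGF-beta ligands and activins signal through paired type I and type II receptor kinases to SMAD2 and SMAD3, and BMPs to SMAD1, SMAD5 and SMAD9, with SMAD4 as common partner. TGF-beta is secreted in a latent complex with LTBP proteins and is released by integrins such as alpha-v beta-8, while follistatin binds and neutralises activins. In mammary epithelium TGF-beta is known as a growth inhibitor that, in advanced tumours, also accompanies invasion and a dampened immune response.

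Values are normalized counts as the authors deposited them, scaled within each table, and differences are log2 fold changes on the log2(normalized count + 1) scale with their standard errors. A gene is said to rise, fall or change only where limma's adjusted p was below 0.05 over all genes tested in that table. A table mean of at least 10 was needed for a test, which the 9 genes met in 55 of the gene and comparison pairs. Of those 55, 25 rose, 19 fell and 11 did not pass. Over all genes tested, the share that passed ran between 21.1% and 69.5% by comparison. TGFB1, TGFB2 and TGFB3 were tested in all 10 comparisons, BMP4 in 7, FST in 6, BMP7 in 4, INHBA and BMP2 in 3 and INHBB in 2. Genes under the filter are given by their values with no test. Statements that groups overlap or lie apart describe the library values and are no test. The share of all genes whose groups lay apart was not counted.

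**Figure D1:**
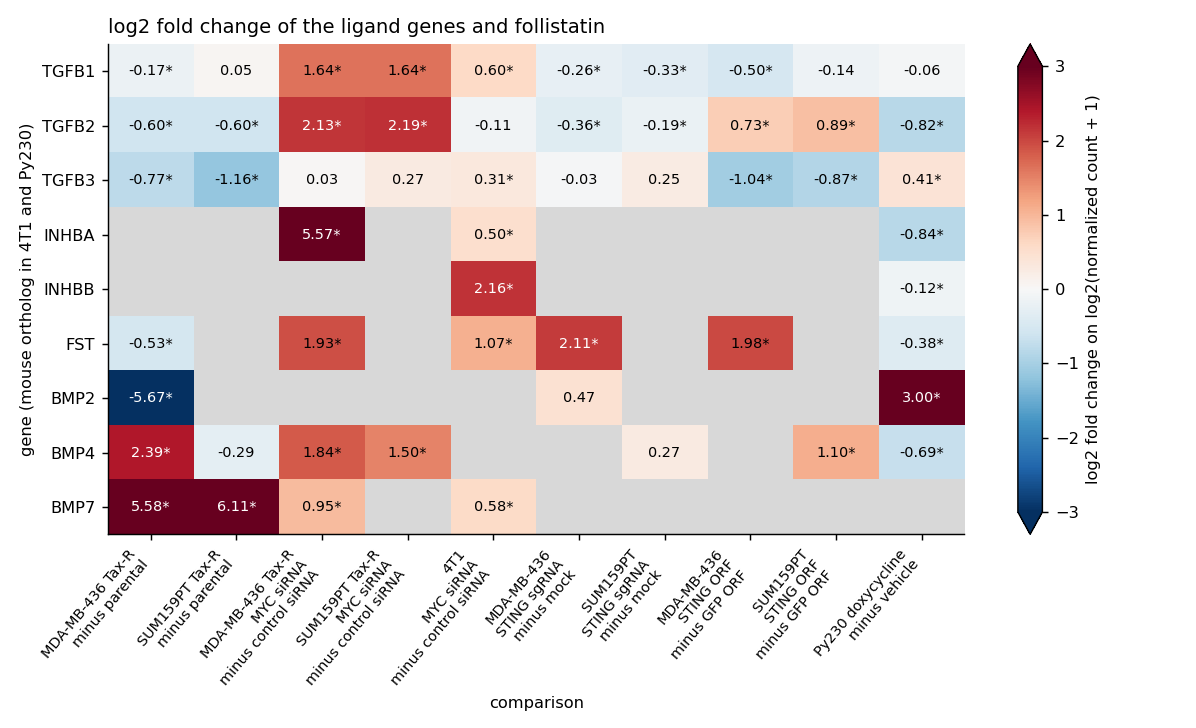
Log2 fold changes of the 9 genes (rows) in the 10 comparisons (columns), on the log2(normalized count + 1) scale; an asterisk marks limma adjusted p below 0.05, grey cells were not tested, and colour is capped at 3 in either direction. TGFB1 and TGFB2 are red under MYC siRNA in both human lines, BMP7 is red in both Tax-R comparisons, and the fitted -5.67 of BMP2 is no bound because both Tax-R libraries held no read.

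Recovered depth ran between 5663610 and 13191675 reads per library. The 9 epithelial markers summed to 2137.73 at the least and 29887.8 at the most per library, with at least 6 of 9 detected in every group, but CDH1, which encodes E-cadherin, had no read in any SUM159PT group. STING1, listed as TMEM173, went as labelled: it fell with the sgRNA in MDA-MB-436 (-1.85 ± 0.15) and in SUM159PT (-1.28 ± 0.11), and was higher with the ORF in MDA-MB-436 (4.47 ± 0.16) and in SUM159PT (4.37 ± 0.12). In these bulk samples, fewer cells that express a gene and less RNA per cell cannot be told apart. The 2 MDA-MB-436 Tax-R libraries differed by less than sampling noise over 20795 genes (chi-square of 0.855 per gene) but by more over the 21 most abundant genes (20.88 per gene), so they were kept apart, and counting them as 1 left all 7 ligand gene calls in place. The MDA-MB-436 mock libraries differed by 1.019 per gene, and by 1.217 per gene over the 22 most abundant genes, close to sampling noise in both. The spread of this control may thus be technical, and p-values against it may be too small. Counting the mock libraries as 1 gave log2 fold changes with the STING sgRNA of -0.255 for TGFB1, -0.3555 for TGFB2 and 2.0888 for FST. The other 33 pairs of libraries ranged between 1.081 and 2.731.

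BMP7 rose in the Tax-R cells set against parental cells in both lines, and in MDA-MB-436 the BMP genes moved apart from each other. The high level was not shared by all cells labelled Tax-R. SUM159PT Tax-R cells given control siRNA, described further on, held BMP7 close to the detection limit. BMP7, a ligand of the BMP receptors known from kidney and bone development, stood at 279 and 277 in the 2 MDA-MB-436 Tax-R libraries, against 3.41 and 6.74 in the parental libraries. In SUM159PT it stood at 248.5 in both Tax-R libraries, against 3.05 and 2.24 in parental cells. The groups did not overlap in either line, with log2 fold changes of 5.58 ± 0.25 in MDA-MB-436 (limma adjusted p = 1.428e-08) and 6.11 ± 0.23 in SUM159PT (limma adjusted p = 5.879e-08).

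BMP4, which acts through the same receptor family, was at 191 and 215 in MDA-MB-436 Tax-R libraries, against 39.2 and 36.6 in parental ones. It rose by 2.39 ± 0.13 (limma adjusted p = 5.301e-08). In SUM159PT the values were 57.3 and 52.5 in Tax-R and 66.1 and 68.2 in parental libraries. There the Tax-R libraries lay below the parental ones without passing the test (-0.29 ± 0.16, limma adjusted p = 0.1791).

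BMP2, a close relative of BMP4, had no read in either MDA-MB-436 Tax-R library, against 52.0 and 48.2 in parental libraries. Taking 3 reads over both Tax-R libraries as the detection floor beside the 111 parental reads, it was at least 32.95-fold lower. In SUM159PT it was near the limit of detection, with 3 reads in the Tax-R libraries and 9 in the parental ones (3.18-fold lower, exact 95% interval 0.794 to 18.3, covering counting error only). No direction can be read from that interval.

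TGFB2 and TGFB3 fell in both lines. TGFB2 stood at 727 and 747 in MDA-MB-436 Tax-R libraries against 1098 and 1136 in parental ones, and at 632 and 604 in SUM159PT Tax-R libraries against 930.0 and 949.8 in parental ones. Its log2 fold change was -0.60 ± 0.04 in MDA-MB-436 and -0.60 ± 0.05 in SUM159PT. TGFB3 was at 111 and 107 in MDA-MB-436 Tax-R cells against 185 and 189 in parental cells (-0.77 ± 0.09). In SUM159PT it was at 94.1 and 98.0 in Tax-R cells against 238 and 195 in parental cells (-1.16 ± 0.12). None of these groups overlapped, though how often this held over all genes was not counted.

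TGFB1 and FST showed small differences. TGFB1 was at 599 and 625 in MDA-MB-436 Tax-R libraries against 675 and 701 in parental ones, a fall of -0.17 ± 0.05 (limma adjusted p = 0.0086) that DESeq2 did not call (adjusted p = 0.177) and that was lost without parental replicate 2 (limma adjusted p = 0.07202) or Tax-R replicate 1 (0.08244). In SUM159PT it was at 477 and 502 in Tax-R and 463 and 481 in parental libraries, which overlapped (0.05 ± 0.06, limma adjusted p = 0.4953). FST was at 77.1 and 67.7 in MDA-MB-436 Tax-R against 101 and 109.8 in parental libraries (-0.53 ± 0.13, limma adjusted p = 0.004606), a call lost after quantile normalization (0.06071), with DESeq2 (0.09534) and without parental replicate 2 (0.08794). In SUM159PT, FST had 4.09 and 4.95 in Tax-R and 3.05 and 4.47 in parental libraries and was under the filter.

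INHBA and INHBB were low in both lines, Tax-R or parental. INHBA did not exceed 11.9 in any of these 8 libraries and INHBB did not exceed 1.12. In all, 2 of the 7 genes tested rose and 5 fell in MDA-MB-436 Tax-R cells, where 54.6% of all genes tested passed, 27.7% higher and 26.9% lower. In SUM159PT 1 of 5 rose and 2 fell, where 45.7% passed, 23.5% higher and 22.1% lower. The median log2 fold change was -0.53 over the 7 genes and 0.01 over all genes in MDA-MB-436, and -0.29 over the 5 and 0.01 over all genes in SUM159PT.

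**Figure D2:**
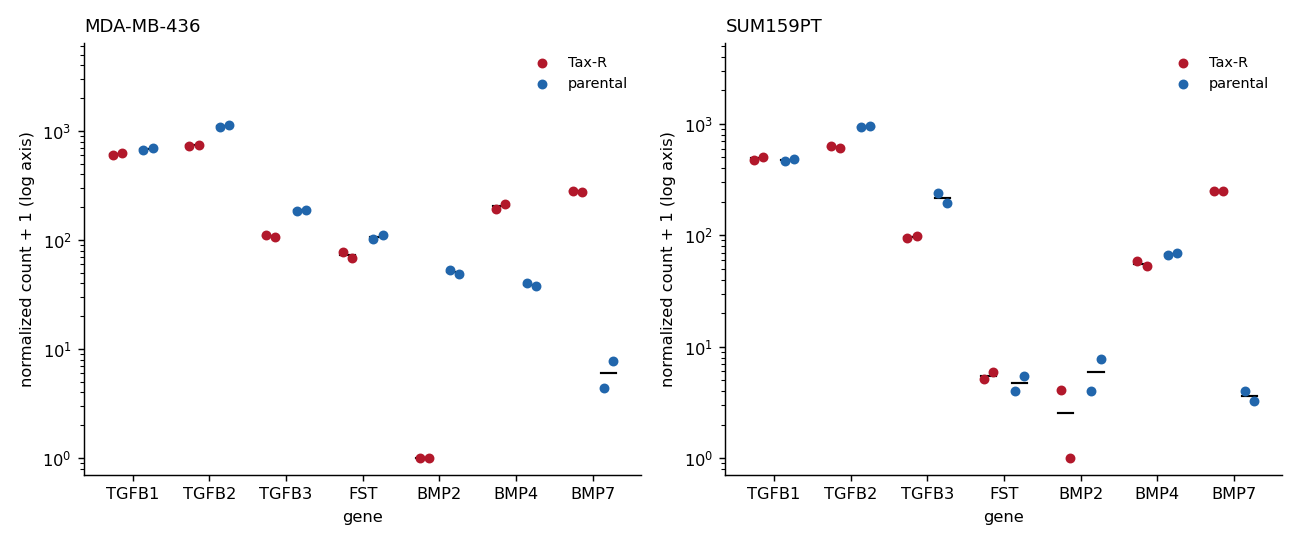
Normalized count + 1 on a log axis for 7 of the genes in Tax-R (red, left) and parental (blue, right) libraries of MDA-MB-436 and SUM159PT; points are libraries and bars are means. BMP7 stands at 277 to 279 in MDA-MB-436 Tax-R libraries and 248.5 in SUM159PT Tax-R libraries, above all parental libraries, and BMP4 is above its parental libraries in MDA-MB-436.

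Other genes of the pathway were mixed in Tax-R cells. Of all genes tested, 27.7% passed as higher and 26.9% as lower in MDA-MB-436, and 23.5% and 22.1% in SUM159PT. SMAD7, SMAD6, SMAD9, SKIL, LTBP2 and BAMBI stand in more than 1 of the lists counted here and below. Of 9 BMP target genes tested, 1 rose and 5 fell in MDA-MB-436 Tax-R cells, among them the inhibitory SMAD7 (-0.77 ± 0.07) and SMAD6 (-0.75 ± 0.06) and the transcriptional repressor HEY1 (-0.53 ± 0.08). In SUM159PT, 1 rose and 3 fell of 9, with SMAD9 at -1.53 ± 0.08, SMAD6 at -1.16 ± 0.13 and HEY1 higher at 1.01 ± 0.19. Of 13 receptors tested in MDA-MB-436, 4 rose and 3 fell, including the BMP type I receptor BMPR1B (8.10 in Tax-R and 60.3 in parental cells, -2.76 ± 0.24). The activin subunit INHBE fell in both lines, by -2.03 ± 0.17 in MDA-MB-436 and by -2.53 ± 0.36 in SUM159PT. LTBP1, which holds latent TGF-beta, rose in SUM159PT (1.45 ± 0.07), and the BMP antagonist NOG fell there (-1.46 ± 0.26).

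Leukocyte, endothelial and epithelial markers were lower in the same Tax-R libraries. The 7 leukocyte markers summed to 298 to 430 in MDA-MB-436 Tax-R libraries against 2061 to 2172 in parental ones, and to 32.7 to 44.0 in SUM159PT Tax-R libraries against 564 to 591 in parental ones. CD3E, which defines T cells, was at 0 in Tax-R cells of either line and in SUM159PT parental cells. Endothelial sums were 167 to 205 in MDA-MB-436 Tax-R against 285 to 303 in parental libraries, and 113 to 138 against 374 to 383 in SUM159PT. Epithelial sums were 2251 to 2381 against 3614 to 3668 in MDA-MB-436 and 2138 to 2182.1 against 3327 to 3352 in SUM159PT. Fibroblast sums were lower in MDA-MB-436 Tax-R cells, at 3838 to 4043 against 5507 to 5515. In SUM159PT they were higher, at 3273 to 3326 in Tax-R against 3162 to 3167 in parental libraries. Mesenchymal sums were higher in Tax-R cells of both lines, at 10486 to 10810 against 9850 to 9963 in MDA-MB-436. In SUM159PT the mesenchymal sums were 12370 to 12549 against 11200 to 11420. The part of these markers in the ligand results was not tested.

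In the libraries labelled MYC siRNA, TGFB1 and TGFB2 rose in both human lines, and INHBA rose in MDA-MB-436. MYC itself stood at 1914 with MYC siRNA-1 and 1915 with MYC siRNA-2 in MDA-MB-436 Tax-R cells, against 2039 with control siRNA (-0.09 ± 0.03, limma adjusted p = 0.01437). In SUM159PT Tax-R cells it stood at 1483 and 1465 against 2695 (-0.87 ± 0.04), and in 4T1 cells at 2286 and 2350 against 2473, which did not pass (-0.09 ± 0.04, limma adjusted p = 0.06826).

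TGFB1 stood at 2341 and 2430.2 with siRNA-1 and 2301 and 2163 with siRNA-2 in MDA-MB-436 Tax-R cells, against 721 and 761 with control siRNA. In SUM159PT Tax-R cells it stood at 3329 and 3181 with siRNA-1 and 3407 and 3279.6 with siRNA-2, against 1068 and 1049 with control siRNA. No MYC siRNA library reached down to a control library. The log2 fold changes were 1.64 ± 0.04 in MDA-MB-436 (limma adjusted p = 2.986e-24) and 1.64 ± 0.04 in SUM159PT (limma adjusted p = 1.635e-35).

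TGFB2, the isoform whose release depends less on RGD-binding integrins, stood at 463 and 475 with siRNA-1 and 448 and 432 with siRNA-2 in MDA-MB-436, against 111 and 95.1 with control siRNA. SUM159PT libraries held 339 and 319 with siRNA-1 and 327 and 315 with siRNA-2, against 59.6 and 82.8. The groups were apart in both lines, with 2.13 ± 0.08 in MDA-MB-436 and 2.19 ± 0.10 in SUM159PT. The antisense transcript TGFB2-AS1 lay higher too, at 41.0, 34.2, 31.3 and 26.4 with MYC siRNA in MDA-MB-436 against 13.8 and 8.74 with control siRNA. In SUM159PT TGFB2-AS1 stood at 29.6 to 43.0 with MYC siRNA against 7.69 and 9.31. The sources used here do not state whether strand was used in counting, and without it reads of an antisense pair cannot be told apart.

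TGFB3 did not follow in the human lines. It stood at 31.2, 28.5, 22.8 and 30.7 with MYC siRNA in MDA-MB-436 against 29.8 and 25.2 with control siRNA, with overlap (0.03 ± 0.22, limma adjusted p = 0.9072). SUM159PT libraries held 56.4, 47.4, 45.1 and 40.4 against 41.3 and 36.2, also with overlap (0.27 ± 0.19, limma adjusted p = 0.189).

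INHBA encodes the beta-A subunit, which pairs into activin A. In MDA-MB-436 Tax-R cells it stood at 160.2 and 162 with siRNA-1 and 168 and 170.3 with siRNA-2, against 2.13 and 2.91 with control siRNA. This was a 47.5-fold difference on the log2(normalized count + 1) scale (5.57 ± 0.18, limma adjusted p = 4.668e-21), and no library of either siRNA came near the controls. INHBA-AS1, its antisense neighbour, did not exceed 0.949 in the same libraries. In SUM159PT, INHBA was near the limit of detection, with 7 reads for siRNA-1 and 6 for siRNA-2 against 1 read for control siRNA, ratios of 6.55 (exact 95% interval 0.842 to 295) and 5.87 (0.712 to 269.8). FST, which neutralises activin A, stood at 27.3 and 15.2 with siRNA-1 and 15.2 and 20.1 with siRNA-2 in MDA-MB-436, against 2.13 and 7.77, and rose by 1.93 ± 0.38 (limma adjusted p = 7.098e-05). Its size rested on the 2 control libraries, being 1.18 without control siRNA replicate 1 and 2.67 without control siRNA replicate 2.

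BMP4 rose in both human lines and BMP7 in MDA-MB-436. BMP4 stood at 59.6 and 57.9 with siRNA-1 and 38.9 and 28.6 with siRNA-2 in MDA-MB-436, against 11.7 and 11.6 with control siRNA (1.84 ± 0.22). SUM159PT libraries held 29.3 and 41.0 with siRNA-1 and 44.1 and 35.5 with siRNA-2, against 12.5 and 12.4 (1.498 ± 0.24). Every MYC siRNA library lay above the controls. BMP7 stood at 109, 123, 110.0 and 92.0 with MYC siRNA in MDA-MB-436 against 54.3 and 56.3 with control siRNA (0.95 ± 0.13). In SUM159PT it had 3.07 to 6.90 with MYC siRNA and 2.88 and 4.14 with control siRNA, under the filter.

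The siRNAs were close to each other. In MDA-MB-436 the widest difference among the 7 genes tested was that of BMP4, -0.80 ± 0.25 for siRNA-2 minus siRNA-1 (limma adjusted p = 0.2201), where 0.195% of all genes passed. The BMP2 and INHBB transcripts were at 0 to 2.85 in every MDA-MB-436 library of this table. In the SUM159PT table BMP2 did not exceed 1.02, and FST and INHBB had no row. In all, 6 of 7 genes tested rose with MYC siRNA in MDA-MB-436, where 67.7% of all genes passed, 34% higher and 33.7% lower. In SUM159PT 3 of 4 rose, where 69.5% passed, 35% higher and 34.5% lower. The median log2 fold changes were 1.84 over the 7 genes and -0.01 over all genes in MDA-MB-436, and 1.57 over the 4 and -0.01 over all genes in SUM159PT.

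In 4T1, 6 of the 7 ligand genes tested rose with MYC siRNA, and Inhbb had the largest log2 fold change of the 7. Inhbb, the activin beta-B subunit, stood at 43.8, 42.0 and 27.7 with siRNA-1 and 43.0, 47.4 and 55.8 with siRNA-2, against 11.7, 7.75 and 7.23 with control siRNA (2.16 ± 0.21, limma adjusted p = 3.546e-09). Fst stood at 35.2, 40.1 and 41.0 with siRNA-1 and 46.6, 34.5 and 47.8 with siRNA-2, against 18.9, 15.5 and 22.7 (1.07 ± 0.18). Tgfb1 ranged between 529.9 and 558 over the 6 MYC siRNA libraries, against 344, 349 and 379 with control siRNA (0.60 ± 0.05). In each of these 3 genes every MYC siRNA library lay above every control library.

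Inhba in 4T1 ranged between 2077 and 2272 with MYC siRNA, against 1446, 1546 and 1591 with control siRNA (0.50 ± 0.04). Bmp7 ranged between 131 and 175 against 90.4, 102 and 114 (0.58 ± 0.10), and Tgfb3 between 380.1 and 438 against 323, 332 and 334 (0.31 ± 0.06). Tgfb2 was the exception among the 7 tested, at 283 to 335 with MYC siRNA against 326, 329 and 333 with control siRNA (-0.11 ± 0.07, limma adjusted p = 0.1674). Thus 6 of 7 rose, where 46.2% of all genes passed, 24.7% higher and 21.5% lower. Whether Tgfb2 differs between the mouse line and the human lines was not tested. Bmp2 and Bmp4 had no row in this table.

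**Figure D3:**
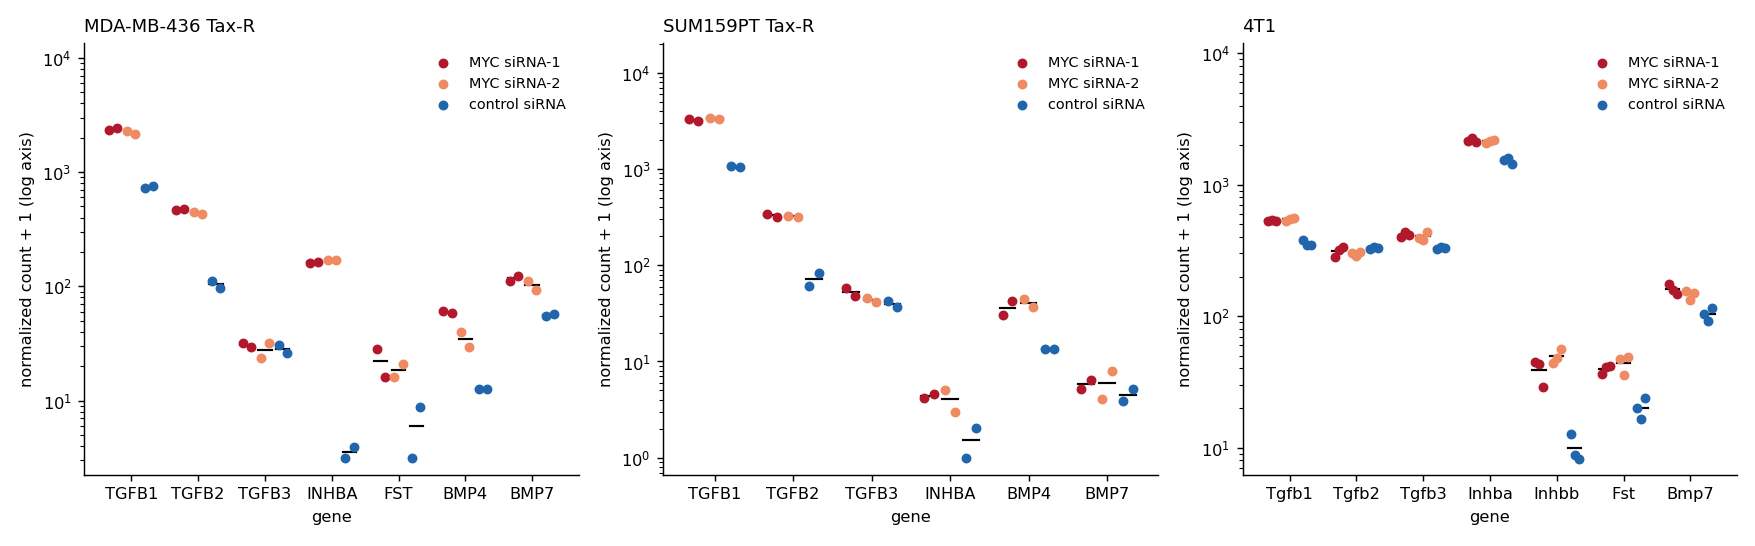
Normalized count + 1 on a log axis in libraries with MYC siRNA-1 (red), MYC siRNA-2 (orange) and control siRNA (blue, right) for Tax-R cells of MDA-MB-436 and SUM159PT and for 4T1 cells; points are libraries and bars are means. INHBA in MDA-MB-436 stands at 160.2 to 170.3 with MYC siRNA, far above the controls at 2.13 and 2.91, while TGFB3 overlaps its controls in both human lines.

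Other genes of the pathway passed in both directions, beside 34% of all genes higher and 33.7% lower in MDA-MB-436, 35% and 34.5% in SUM159PT, and 24.7% and 21.5% in 4T1. In MDA-MB-436, 9 of 10 extracellular antagonists and latency proteins rose and none passed as lower, including LTBP3 (2.34 ± 0.05) and the activin-binding FSTL3 (1.59 ± 0.06), both of which also rose in SUM159PT (2.38 ± 0.06 and 1.67 ± 0.05), where 9 of 11 rose and 1 fell. All 4 activating proteins tested rose in both human lines, among them the integrin subunit ITGB8 (3.34 ± 0.18 in MDA-MB-436 and 2.43 ± 0.08 in SUM159PT) and the proprotein convertase FURIN (0.83 ± 0.03 and 0.71 ± 0.04). Of 11 TGF-beta and activin target genes, 9 rose and 2 fell in MDA-MB-436, with PMEPA1 at 2.31 ± 0.10 and ANGPTL4 at 2.64 ± 0.07, and 8 rose and 2 fell in SUM159PT, with PMEPA1 at 2.52 ± 0.13 and CCN1, listed as CYR61, lower at -2.002 ± 0.04. TGFBR1, the type I TGF-beta receptor, rose by 1.57 ± 0.08 in MDA-MB-436, 1.14 ± 0.07 in SUM159PT and 0.50 ± 0.05 in 4T1. TGFBR3, the co-receptor that presents TGF-beta 2, fell in both human lines (-0.66 ± 0.10 and -1.31 ± 0.07) and rose in 4T1 (0.56 ± 0.11). In 4T1, 9 of 10 target genes rose, led by Angptl4 (1.67 ± 0.30) and Fn1 (1.05 ± 0.04), and of 4 activating proteins 3 rose and 1 fell. Of 12 SMAD genes, ligases and corepressors, 7 rose and 1 fell in MDA-MB-436, 7 rose and 4 fell in SUM159PT, and of 11 in 4T1, 7 rose. Of 9 BMP target genes, 5 rose and 1 fell in MDA-MB-436, 4 rose and 2 fell in SUM159PT, and of 6 in 4T1, 4 rose.

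Fibroblast markers moved the same way in the human lines. The 7 markers summed to 7600 to 7628 with siRNA-1 and 6746 to 6882 with siRNA-2 in MDA-MB-436, against 552 to 558 with control siRNA, and LUM had no read with either MYC siRNA. In SUM159PT they summed to 25776 to 26716 with siRNA-1 and 26365 to 27605 with siRNA-2, against 3642 to 4174. In 4T1 the fibroblast sums overlapped, at 213 to 316 with MYC siRNA and 212 to 243 with control siRNA. The 8 mesenchymal markers, which include the target gene FN1, were higher in all 3 lines. They summed to 26853 to 28395 with MYC siRNA against 22047 to 22629 with control siRNA in MDA-MB-436, to 40472 to 41531 against 27991 to 28003 in SUM159PT, and to 35722 to 40078 against 17779 to 18231 in 4T1. Fn1 alone averaged 29186 with siRNA-1 and 27816 with siRNA-2 against 13764 with control siRNA in 4T1. The 5 endothelial markers summed to 38.9 to 60.3 with MYC siRNA against 19.4 to 23.4 with control siRNA in MDA-MB-436 and to 139 to 172 against 63.5 to 75.5 in SUM159PT, and overlapped in 4T1. Epithelial sums were higher too, at 4855 to 4988 against 4144 to 4159 in MDA-MB-436, 5880 to 6136 against 4736 to 4740.2 in SUM159PT and 28257 to 29888 against 22761 to 24416 in 4T1. The part of any of these lists in the ligand results was not tested.

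MYC with its partner MAX is known to bind the E-box CACGTG. The promoters of TGFB1 and TGFB2, which rose in both human lines, are shown. That of INHBA, which had the largest log2 fold change in MDA-MB-436, is shown too. The 3 genes were picked by these results, and a direct action of MYC on them was not tested. Sequences are from RefSeq on GRCh38.p14, as the 250 bases before the transcript start, 5′ to 3′ on the gene's strand. Capitals mark the E-box CACGTG and the TATA box TATAAA, searched on both strands; their letters do not overlap each other. TGFB1 lies on the minus strand (chr19:41353923-41354172), TGFB2 on the plus strand (chr1:218345086-218345335) and INHBA on the minus strand (chr7:41703091-41703340).
TGFB1: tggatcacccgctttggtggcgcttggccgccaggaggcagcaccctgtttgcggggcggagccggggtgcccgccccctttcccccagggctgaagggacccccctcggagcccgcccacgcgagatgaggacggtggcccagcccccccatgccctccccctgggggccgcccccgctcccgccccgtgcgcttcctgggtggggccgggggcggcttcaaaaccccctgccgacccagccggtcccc
TGFB2: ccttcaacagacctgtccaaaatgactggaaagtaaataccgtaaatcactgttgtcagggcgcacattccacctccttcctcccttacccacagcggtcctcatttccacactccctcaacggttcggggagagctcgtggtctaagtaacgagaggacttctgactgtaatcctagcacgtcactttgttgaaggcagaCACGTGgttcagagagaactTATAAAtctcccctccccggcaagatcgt
INHBA: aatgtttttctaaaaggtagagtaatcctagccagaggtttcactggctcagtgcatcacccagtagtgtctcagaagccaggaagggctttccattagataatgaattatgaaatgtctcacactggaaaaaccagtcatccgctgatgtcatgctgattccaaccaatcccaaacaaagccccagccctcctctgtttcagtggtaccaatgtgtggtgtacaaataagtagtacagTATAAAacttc
TGFB3, which did not pass in the human lines, also has an E-box in a window, 20 bases before the start. BMP4, which rose in both human lines and is not printed, has an E-box in a window, 83 bases before the start. The TGFB2 window held an E-box that begins 49 bases before the start and a TATA box that begins 29 bases before it. The INHBA window held a TATA box 11 bases before the start and no E-box, and the TGFB1 window held neither. RefSeq windows were found for 7 of the 9 genes, 10 windows in all, and 3 of them, 1 each for TGFB2, TGFB3 and BMP4, held an E-box. Of 35116 human windows of the same length, 6.34% held an E-box and 10.7% a TATA box. BMP2 and BMP7 had no window in that table. These matches describe letters and say nothing of binding.

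With a STING sgRNA, FST rose 4.31-fold in MDA-MB-436 while TGFB1 fell slightly in both lines. TGFB2 fell slightly in MDA-MB-436, and in SUM159PT through C1 alone. FST stood at 134 and 125 in C1 and 140.0 and 141 in C2 libraries, against 36.1 and 25.8 in mock libraries. All 4 sgRNA libraries lay far above both mock libraries (2.11 ± 0.14, limma adjusted p = 5.663e-13). FST, BMP2 and BMP7 had no row in the SUM159PT tables of the sgRNA and of the ORF.

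TGFB1 stood at 1453 and 1442 in C1 and 1402 and 1316 in C2 of MDA-MB-436, against 1671 and 1676 in mock cells (-0.26 ± 0.04). In SUM159PT it stood at 1065 and 1063 in C1 and 1106 and 1027 in C2, against 1407 and 1276 in mock cells (-0.33 ± 0.05). Mock libraries were above all sgRNA libraries in both lines. TGFB2 stood at 369.9 and 343 in C1 and 382 and 399 in C2 of MDA-MB-436, against 487 and 468 in mock cells (-0.36 ± 0.07, limma adjusted p = 6.118e-05). TGFB2-AS1 lay lower beside it, at 12.3 to 18.8 in sgRNA libraries against 38.1 and 54.5 in mock libraries.

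In SUM159PT the fall of TGFB2 rested on C1. It stood at 497 and 489 in C1 and 578 and 591 in C2, against 583 and 648 in mock cells, so that C2 overlapped the mock libraries. The mean of both groups gave -0.19 ± 0.06 (limma adjusted p = 0.00776), C1 alone -0.32 ± 0.07 (0.0004435) and C2 alone -0.07 ± 0.07 (0.4159). C2 minus C1 was 0.25 ± 0.07 (limma adjusted p = 0.008589), where 19.9% of all genes passed between these groups. The call against mock was also lost with DESeq2 (adjusted p = 0.1043), with no filter on low values (0.07109) and without mock replicate 2 (0.2126).

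TGFB3 did not pass in either line. Of the BMP genes only BMP2 in MDA-MB-436 and BMP4 in SUM159PT were tested, and neither passed. TGFB3 stood at 28.1 to 35.5 in the 4 sgRNA libraries of MDA-MB-436 against 32.2 and 32.3 in mock libraries (-0.03 ± 0.21, limma adjusted p = 0.9245), and at 63.6, 90.2, 64.8 and 76.2 in SUM159PT against 62.0 and 60.5 (0.25 ± 0.16, limma adjusted p = 0.2173). BMP4 stood at 61.7 and 74.4 in C1 and 52.5 and 50.5 in C2 of SUM159PT, against 44.8 and 52.8 in mock libraries (0.27 ± 0.17, limma adjusted p = 0.2018). BMP2 in MDA-MB-436 stood at 16.04 and 9.39 in C1 and 13 and 10.2 in C2, against 2.93 and 21.2 in mock libraries, which enclosed them all. Its sign depended on which mock library was used: 0.47 ± 0.45 with both, -0.78 without mock replicate 1 and 1.72 without mock replicate 2 (limma adjusted p = 0.007701 for the last). INHBA had at most 2.77 in either line. BMP4 in MDA-MB-436 was under the filter, at 4.09 to 9 in sgRNA libraries and 2.77 and 3.90 in mock libraries, and BMP7 there did not exceed 2.00461. Between C2 and C1 of MDA-MB-436 the 5 tested genes had adjusted p of 0.3955 or more with limma, where 0.797% of all genes passed.

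Thus 1 of 5 genes tested rose and 2 fell in MDA-MB-436, where 47.8% of all genes passed, 24.8% higher and 23% lower. In SUM159PT 2 of 4 fell, where 39.1% passed, 19.3% higher and 19.8% lower. The BMP target genes went opposite ways in the lines: 5 of 7 fell and none passed as higher in MDA-MB-436, with ID3 at -1.28 ± 0.08, SMAD6 at -1.25 ± 0.15 and ID1 at -0.89 ± 0.06, while 4 of 8 rose and none passed as lower in SUM159PT, with SMAD9 at 1.15 ± 0.13, SMAD6 at 0.75 ± 0.09 and ATOH8 at 0.56 ± 0.09. ID1 and ID3 are inhibitors of basic helix-loop-helix factors and are direct readouts of BMP signals in many cells. The difference between the lines was not tested. Among receptors 3 of 10 rose in MDA-MB-436, led by TGFBR1 (0.52 ± 0.06), and the latency proteins LTBP3 (-0.79 ± 0.11) and LTBP4 (-0.78 ± 0.05) fell there. In SUM159PT leukocyte markers summed to 12.6 to 14.2 in C1 and 8.24 to 13.4 in C2, against 113 to 132 in mock libraries, with CD3E at 0 in all 3 groups. Endothelial sums there were 163 to 175 in sgRNA libraries against 52.8 to 57.2 in mock libraries, and mesenchymal sums were 27960 to 29109 against 21666 to 22025. In MDA-MB-436 mesenchymal sums were 27199 to 28987 in sgRNA libraries against 22669 to 22868 in mock libraries. Fibroblast sums there were 3569 to 4167 against 5004 to 5069.9. In SUM159PT fibroblast sums lay the other way, at 1706 to 1910 against 1318 to 1389. Leukocyte sums were higher with the sgRNA in MDA-MB-436, at 1232 to 1326 against 1027 to 1047. Endothelial sums there were 91.2 to 130 against 72.0 to 79.0. Epithelial sums were 5604 to 5927 against 6596 to 6614 in MDA-MB-436 and 10267 to 11535 against 9595 to 10015 in SUM159PT. The part of these lists in the result was not tested.

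In STING sgRNA cells with a STING ORF, TGFB2 rose against the GFP ORF in both lines. TGFB3 fell in both lines, but neither call held in every alternative fit. TGFB2 stood at 832 and 876 with the STING ORF in MDA-MB-436, against 503 and 525 with the GFP ORF (0.73 ± 0.09, limma adjusted p = 8.893e-08). SUM159PT libraries held 935 and 1049 with the STING ORF, against 498 and 571 with the GFP ORF (0.89 ± 0.09, limma adjusted p = 4.976e-08). The groups were apart in both lines. TGFB2-AS1 stood at 109 and 86.4 against 52.3 and 40.5 in SUM159PT, and overlapped in MDA-MB-436 at 36.9 and 23.3 against 29.4 and 20.98.

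TGFB3 stood at 14.5 and 12.6 with the STING ORF in MDA-MB-436 against 34.9 and 23.8 with the GFP ORF (-1.04 ± 0.32, limma adjusted p = 0.01841). That call was lost with no filter on low values (adjusted p = 0.1315), without GFP ORF replicate 1 (0.2718) and without STING ORF replicate 2 (0.1016). In SUM159PT it stood at 35.9 and 41.6 with the STING ORF against 72.4 and 70.7 with the GFP ORF (-0.87 ± 0.20, limma adjusted p = 0.001849), a call lost with no filter (0.05353) and with DESeq2 (0.06763).

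FST rose in MDA-MB-436 here too, at 192 and 229 with the STING ORF against 49.6 and 55.3 with the GFP ORF (1.98 ± 0.16, limma adjusted p = 1.895e-11). So FST lay higher than its own control both with the STING sgRNA and with the STING ORF added to it, in tables that share no library. In CPM, the reads of a gene scaled to the library total, FST averaged 33.3 with the STING ORF and 8.07 with the GFP ORF in STING sgRNA cells, and 18.8 in C1 and 20.4 in C2 against 4.55 in mock cells. Cells with the STING sgRNA thus had different mean FST levels in the 2 tables, with no test across them, the GFP ORF group lying below C1, C2 and the untreated parental cells of the Tax-R table (9.36 CPM). INHBA, whose product FST binds, had 6.71 and 8.75 with the STING ORF and no read with the GFP ORF, 15 reads against 0, which is at least 5.51-fold higher. In SUM159PT INHBA had 5 reads with the STING ORF against 0 with the GFP ORF, at least 1.93-fold higher. INHBA was under the filter in both tables.

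TGFB1 stood at 973 and 890.4 with the STING ORF in MDA-MB-436 against 1375 and 1253 with the GFP ORF (-0.50 ± 0.08). In SUM159PT it stood at 1063 and 962 against 1097 and 1139, apart but short of the threshold (-0.14 ± 0.08, limma adjusted p = 0.1983), which it passed without STING ORF replicate 1 (-0.22, limma adjusted p = 0.0102). BMP4 stood at 55.9 and 37.3 with the STING ORF in SUM159PT against 21.8 and 19.8 with the GFP ORF (1.10 ± 0.26, limma adjusted p = 0.002377). DESeq2 (0.07193) and the fit with no filter (0.07954) did not call it. In MDA-MB-436 BMP4 had 4.47 and 0.972 with the STING ORF and 7.34 and 3.82 with the GFP ORF, and BMP2 had 12.3 and 9.72 against 9.18 and 5.72, both under the filter. BMP7 did not exceed 0.972 there, and INHBB in SUM159PT did not exceed 0.872.

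In all, 2 of 4 genes tested rose and 2 fell with the STING ORF in MDA-MB-436, where 21.1% of all genes passed, 9.2% higher and 11.9% lower. In SUM159PT 2 of 4 rose and 1 fell, where 26% passed, 13.2% higher and 12.8% lower. SMAD6, an inhibitor of BMP receptors, fell in both lines with the STING ORF (-0.89 ± 0.19 in MDA-MB-436 and -0.86 ± 0.12 in SUM159PT), and 2 of 8 BMP target genes passed as lower in each line with none higher. CCN1 rose in both (0.67 ± 0.10 in MDA-MB-436 and 0.94 ± 0.07 in SUM159PT). Of 10 receptors, 3 rose and 1 fell in MDA-MB-436, with TGFBR1 at 0.66 ± 0.10. Fibroblast markers summed to 2069 to 2218 with the STING ORF in MDA-MB-436 against 3102 to 3172 with the GFP ORF, and to 454 to 534 in SUM159PT against 1117 to 1156. Epithelial and mesenchymal sums were also lower with the STING ORF in both lines, and leukocyte sums in MDA-MB-436 (449.5 to 491 against 576 to 661). The part of these lists in the result was not tested.

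**Figure D4:**
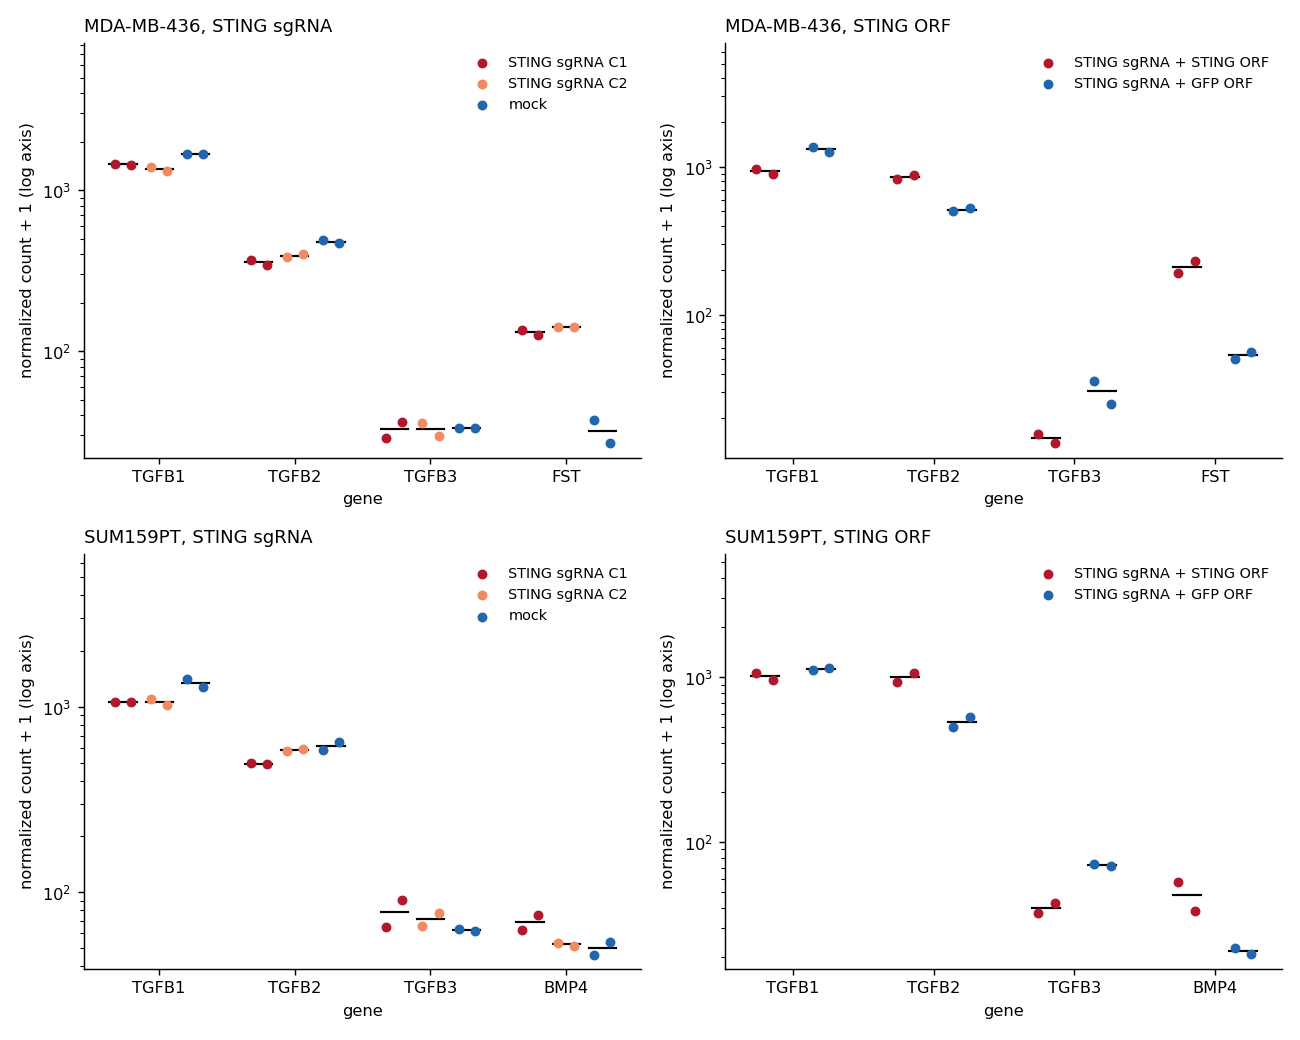
Normalized count + 1 on a log axis in MDA-MB-436 (top) and SUM159PT (bottom), with the STING sgRNA groups C1 (red) and C2 (orange) beside mock (blue) at left and the STING ORF (red) beside the GFP ORF (blue) at right; points are libraries and bars are means. FST in MDA-MB-436 stands above its controls in both panels, at 125 to 141 with the sgRNA and at 192 and 229 with the ORF, and TGFB2 is below mock with the sgRNA in MDA-MB-436 and above the GFP ORF in both lines.

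In Py230 cells given doxycycline, Bmp2 rose 8.02-fold while Tgfb2, Inhba and Bmp4 fell. Sting1, listed as Tmem173, fell by 4.14 on the log2 scale, and Myc fell by 1.64. Doxycycline itself and the knockdown of Sting1 cannot be told apart in this design. Bmp2 stood at 581, 559 and 488 with doxycycline, against 61.8, 69.0 and 69.3 with vehicle (3.004 ± 0.09, limma adjusted p = 4.691e-19).

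Tgfb2 stood at 618, 668 and 664 with doxycycline, against 989, 1256 and 1219 with vehicle (-0.82 ± 0.07). Inhba stood at 337, 316 and 366 against 597, 619 and 613 (-0.84 ± 0.07), and Bmp4 at 167, 176 and 185 against 249, 327 and 281 (-0.69 ± 0.09). All doxycycline libraries lay below all vehicle libraries for these genes, unlike Bmp2. Tgfb3 went the other way from Tgfb2, at 1673, 1739 and 1612 with doxycycline against 1301, 1221 and 1259.8 with vehicle (0.41 ± 0.05).

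Fst stood at 94.7, 115 and 100.4 with doxycycline against 130.1, 141 and 132 with vehicle (-0.38 ± 0.11, limma adjusted p = 0.005286). Inhbb stood at 1918, 1796 and 1986 against 2013, 2047 and 2122 (-0.12 ± 0.05, limma adjusted p = 0.02562). The groups were apart, but that small Inhbb call was lost after quantile normalization (adjusted p = 0.283), with edgeR (0.05118), with DESeq2 (0.1087), without vehicle replicate 3 (0.121) and without doxycycline replicate 2 (0.1625). Tgfb1 stood at 141, 146 and 151 against 176, 141 and 141, with overlap (-0.06 ± 0.11, limma adjusted p = 0.6474). Bmp7 had no row.

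Thus 2 of 8 genes rose and 5 fell, where 67.8% of all genes passed, 32.8% higher and 35.1% lower. Of 9 BMP target genes 4 rose and 3 fell, with Atoh8 (2.63 ± 0.27), Id2 (2.32 ± 0.08) and Hey1 (1.198 ± 0.13) leading. Of 11 SMAD genes, ligases and corepressors 7 fell and 1 rose, with Smad4 at -0.85 ± 0.05 and Smad2 at -0.81 ± 0.06. The integrin subunit Itgb6, which pairs with alpha-v to release latent TGF-beta, fell by 2.52 ± 0.10 on the log2 scale, while Itgb8 rose by 1.19 ± 0.05. Tgfbr2 rose by 1.01 ± 0.04. Fibroblast markers summed to 306 to 407 with doxycycline against 471 to 558 with vehicle, with all 7 detected. Mesenchymal markers lay the other way, at 58177 to 67698 with doxycycline against 43036 to 44592 with vehicle, with Twist2 at 0 in both groups. The part of these lists in the result was not tested.

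**Figure D5:**
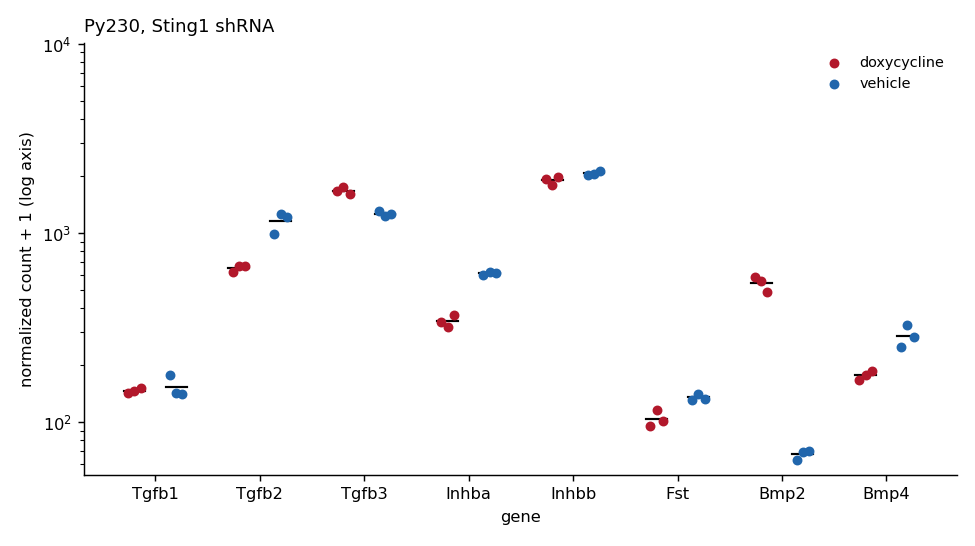
Normalized count + 1 on a log axis for 8 genes in Py230 cells with a Sting1 shRNA, with doxycycline (red, left) and vehicle (blue, right); points are the 3 libraries of each group and bars are means. Bmp2 stands at 488 to 581 with doxycycline against 61.8 to 69.3 with vehicle, and Tgfb2, Inhba and Bmp4 are lower with doxycycline.

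Across tables, which were normalized separately, levels are set side by side only as CPM, the recovered reads of a gene scaled to the library total. BMP7 averaged 24.2 ± 0.176 CPM in MDA-MB-436 Tax-R and 22.1 ± 0.0318 CPM in SUM159PT Tax-R libraries (SD, n = 2 each), the top of 15 human groups. The Tax-R cells of the siRNA tables were lower with control siRNA, at 7.97 ± 0.205 CPM in MDA-MB-436 and 0.511 ± 0.129 CPM in SUM159PT (SD, n = 2 each). Parental libraries averaged 0.452 ± 0.21 CPM in MDA-MB-436 and 0.241 ± 0.0529 CPM in SUM159PT (SD, n = 2 each). SUM159PT cells labelled Tax-R thus held BMP7 at a high level in one table and close to the detection limit in the other. BMP7 averaged at most 0.144 CPM in the MDA-MB-436 groups with a STING sgRNA or mock.

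INHBA in the human groups averaged 24.04 CPM with MYC siRNA-2 and 22.9 CPM with MYC siRNA-1 in MDA-MB-436 Tax-R cells, which did not overlap, and at most 1.22 CPM in the other 18 groups. In mouse it averaged 291.6 CPM with siRNA-1 and 287 CPM with siRNA-2 in 4T1 against 214 CPM with control siRNA, and 42.7 CPM with doxycycline against 74.0 CPM with vehicle in Py230. TGFB1 spanned 43.0 to 471 CPM over 20 human groups, with the 4 MYC siRNA groups at the top and the Tax-R and parental groups of the first pair of tables at the bottom. TGFB2 was lowest in the control siRNA groups, at 14.8 CPM in MDA-MB-436 and 10.4 CPM in SUM159PT. It was highest with the STING ORF, at 146 CPM in SUM159PT and 135 CPM in MDA-MB-436. With MYC siRNA-1 and siRNA-2 it averaged 66.7 and 62.5 CPM in MDA-MB-436 and 46.5 and 45.3 CPM in SUM159PT. The Tax-R cells set against parental cells averaged 64.0 CPM in MDA-MB-436 and 55.0 CPM in SUM159PT, with no test across tables. Of the 19 neighbouring pairs in each order, 8 overlapped for TGFB1, 9 for TGFB2, 11 for TGFB3 and 17 for INHBA.

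For the 3 members that passed the filter in all 8 human tables, the genes with the most similar pattern were sought over 40 libraries and 12382 genes, as Pearson's r of log2 values after taking out each table's mean. Libraries of a group share their treatment, so r is a description. TGFB1 was most like PLOD1 (r = 0.983), SH3BGRL3 (0.978) and EMP2 (0.974). TGFB2 was most like PPM1L (0.958), CPD (0.955) and FNDC3B (0.948). TGFB3 was less closely matched, by C4A (0.819), KRT18 (0.818) and GSE1 (0.799).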

How the data were processed

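RNA was extracted with a Maxwell kit and libraries were made with standard Illumina protocols, per the labels. The authors deposited normalized counts (unit: signal), with 1 scaling factor for every library in each of the 10 tables. HISAT2, StringTie, featureCounts and DESeq2 are listed in the submitters' processing notes; genome build, strand setting and versions are not given in the sources used here. All 55 columns were mapped to a sample. Dividing by the smallest step of a library gave whole reads for 100% of values (tolerance 0.05), and the count tests edgeR and DESeq2 were run on them as alternatives.

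Each table was fitted alone with limma-trend on log2(value + 1), two-sided, keeping genes whose mean over the table reached 10, and p-values were Benjamini-Hochberg adjusted over the table. Where a table held 2 perturbed groups, the mean of both was set against the control. Folds against 0 reads used a floor of 3 reads over the group. Exact 95% intervals and floors cover counting error only. No source states whether the replicates of a group come from separate cultures; their spread, and with it each p-value, may be technical. The main fits paired no libraries by replicate number. In the MDA-MB-436 MYC siRNA table and both STING ORF tables, every library correlated best with those of its number. With 2 libraries per group this means only that r was positive, and r there was 0.02296 to 0.1104. It does not show that libraries were paired.

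The members and gene lists were chosen with earlier results of these data known. Named genes are the 9 members, the targeted genes, and up to 3 called genes per list with the widest change. The results were recomputed with pseudocount 4, no filter, quantile normalization, a replicate block, edgeR, DESeq2, each reagent alone, each library left out and doubtful pairs counted as 1, the MDA-MB-436 mock pair being added after the data were seen. The fits were tested on simulated data. Versions were DESeq2 1.42.0, edgeR 4.0.16, limma 3.58.1 and R 4.3.3.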

Additional observations from a re-analysis of the deposited data

Results flagged for a closer look

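BMP4 was set apart because its Tax-R libraries lay on different sides of the parental ones in the human lines. Both MDA-MB-436 Tax-R libraries (191 and 215) lay above both parental libraries (39.2 and 36.6), and both SUM159PT Tax-R libraries (57.3 and 52.5) lay below both parental libraries (66.1 and 68.2). The log2 fold change in MDA-MB-436 less that in SUM159PT was 2.68 (2.6787). The difference between the lines was not tested, and the SUM159PT change did not pass limma's threshold by itself. How many of all genes lay on opposite sides in this way was not counted.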

How the results depend on the processing

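Over 706 alternative values for the 55 gene and comparison pairs, 667 kept direction and side of the threshold, 22 lost a call, 2 gained one and 15 changed sign. For 42 of the 55 pairs every alternative run agreed in both. Every sign change was in a pair that did not pass: TGFB1 in SUM159PT Tax-R (-0.0016 after quantile normalization), TGFB1 in Py230 (0.007 after quantile normalization, -0.1126 to 0.0476 with each library left out), TGFB3 with MYC siRNA in MDA-MB-436 (-0.1036 after quantile normalization, -0.0519 with siRNA-2 alone, -0.084 to 0.1483 with each library left out), TGFB3 with STING sgRNA in MDA-MB-436 (0.1159 after quantile normalization, -0.1099 to 0.0539 with each library left out) and BMP2 there (-0.0249 with edgeR, -0.0119 with DESeq2, -0.0179 with the mock pair as 1, -0.7832 to 1.7175 with each library left out).

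The ligand genes called with STING sgRNA in SUM159PT were 2, but 1 with no filter, with DESeq2 and with C2 alone, and 1 to 2 with each library left out. Between C2 and C1 there was 1, but 0 with no filter and with DESeq2. With the STING ORF in SUM159PT there were 3, but 1 with no filter and with DESeq2. Over all genes, DESeq2 called 5913 against limma's 10421 in MDA-MB-436 Tax-R, 4447 against 8386 in SUM159PT Tax-R, 4265 against 7316 with STING sgRNA in MDA-MB-436, 3198 against 5927 in SUM159PT, 1090 against 3134 with the STING ORF in MDA-MB-436 and 1645 against 3875 in SUM159PT. With no filter the last pair fell to 328 and 884 calls. The mock pair counted as 1 gave 4855 in MDA-MB-436, and C1 alone gave 3487 in SUM159PT. With each library left out the STING ORF counts ran between 1247 and 3610 in MDA-MB-436 and between 1257 and 5463 in SUM159PT. The cause of these shifts was not tested. The replicate number as a block changed no ligand gene call (7 remained the count in MDA-MB-436 Tax-R), and same-numbered libraries deviated together by r of -0.0913 to 0.1104. Depth limits what can be said of a gene with few reads: the 7 and 6 INHBA reads with MYC siRNA in SUM159PT gave intervals that include no difference from the 1 control read.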
